A study of Mus musculus with 6 samples.

Results

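Ferritin, heme oxygenase and the other genes that move, store and sense iron were followed in primary mouse articular chondrocytes after knockdown of Irf1. The genes were 10 chosen by symbol (Fth1, Ftl1, Tfrc, Slc40a1, Slc11a2, Aco1, Ireb2, Ncoa4, Hmox1 and Hmox2). Each symbol matched exactly 1 of the 55377 gene rows in all 6 count files, and all 10 passed the filter on low counts. Chondrocytes, the cells of cartilage, were taken from articular cartilage into primary culture and transfected with a control siRNA (3 libraries, control replicates 1 to 3) or with an siRNA against Irf1 (3 libraries, Irf1 siRNA replicates 1 to 3), and RNA was extracted 36 h later. The product of Irf1, IRF1, is a transcription factor that acts in the interferon response. The labels give no strain, age or sex and 1 siRNA label per arm. Whether the replicates came from separate cultures is not said in them, and the p-values speak for the spread among these 6 libraries, part of which may be technical.

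Cells take up iron by endocytosis of transferrin bound to the transferrin receptor (Tfrc), move it out of the endosome through the transporter DMT1 (Slc11a2), store it in shells built of ferritin heavy and light chains (Fth1, Ftl1) and export it through ferroportin (Slc40a1). NCOA4 carries ferritin to the lysosome, where the iron is released, and the heme oxygenases (Hmox1, inducible, and Hmox2, constitutive) free iron from heme. The iron regulatory proteins IRP1 (Aco1, which is a cytosolic aconitase when it holds an iron-sulfur cluster) and IRP2 (Ireb2) bind iron responsive elements, short hairpins in untranslated regions (UTRs). In iron-poor cells their binding in a 5′ UTR blocks translation, and their binding in the 3′ UTR of the Tfrc mRNA protects that mRNA from decay.

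The hairpins are shown first because they tie the storage, export and uptake genes to the same pair of sensors. They were searched in the transcripts of GENCODE mouse release M21 (build GRCm38, matched by gene identifier) as a C, any 5 bases, the loop CAGTGN and then 5 bases that pair with the first 5, G with T allowed. Only the sense strand was read, since the hairpin forms in the mRNA. Of the 10 genes, 4 held such a core. Fth1, Ftl1 and Slc40a1 had 1 each in the 5′ UTR and Tfrc had 4 in the 3′ UTR. The capitals mark the unpaired C and the loop.
Fth1, 5′ UTR, chr19:9982733-9982759, plus strand: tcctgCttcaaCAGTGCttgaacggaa
Ftl1, 5′ UTR, chr7:45459780-45459806, minus strand: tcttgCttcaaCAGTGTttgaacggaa
Slc40a1, 5′ UTR, chr1:45925466-45925492, minus strand: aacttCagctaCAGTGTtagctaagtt
Tfrc, 3′ UTR, chr16:32631220-32631246, plus strand: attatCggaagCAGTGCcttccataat
Tfrc, 3′ UTR, chr16:32631599-32631625, plus strand: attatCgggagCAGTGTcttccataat
Tfrc, 3′ UTR, chr16:32631664-32631690, plus strand: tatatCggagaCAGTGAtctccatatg
Tfrc, 3′ UTR, chr16:32631711-32631737, plus strand: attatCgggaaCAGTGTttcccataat

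The cores of the ferritin chains were the same at 16 of 17 bases. They differed only by T12C, which gives the base of Ftl1, the position counted from 1 at the capital C before the stem, and the base of Fth1. The Slc40a1 core shared 10 of 17 bases with that of Fth1 and 11 with that of Ftl1. The 4 Tfrc cores shared 11 to 15 of 17 bases with each other. A core was rare among all tested genes. Of the 12765 with a 5′ UTR, 0.18% held one there (23 genes, 3 of them among the 10). Of the 12815 with a 3′ UTR, 0.796% did (102 genes, Tfrc among them). No exact core was found in the UTRs of the other 6 genes, which says only that these letters are not there.

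**Figure D1:**
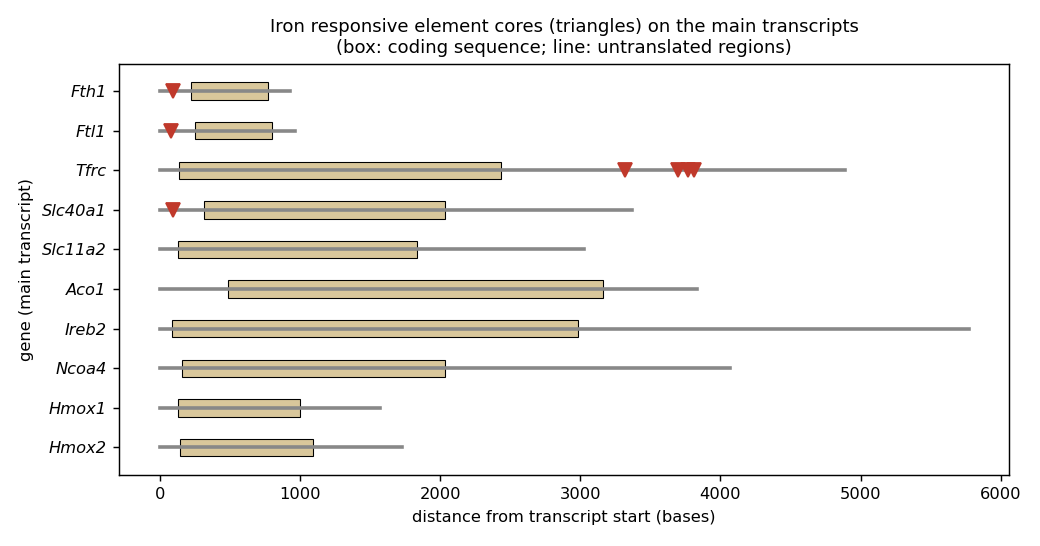
Main annotated transcript of each of the 10 genes, drawn to scale in bases from the transcript start, with the coding sequence as a box, the untranslated regions as lines and each iron responsive element core as a triangle. Cores lie before the coding sequence in Fth1, Ftl1 and Slc40a1, and all 4 cores of Tfrc lie after it.

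The libraries held 22349142 to 29282494 counts, and each Irf1 siRNA library was shallower than each control library. Irf1 itself averaged 11.98 ± 0.759 CPM in the controls and 5.58 ± 0.471 CPM after knockdown (SD, n = 3), 46.5% of control, and all 6 libraries lay on the side of their label (edgeR adjusted p = 3e-06). CPM, the unit of all levels here, are read counts relative to the TMM-scaled library size. The 11 chondrocyte markers, all tested, included 1 with an unadjusted p under 0.05 and none past the threshold in edgeR or DESeq2, and their summed level was 92020 to 121400 CPM in control and 92270 to 122000 CPM in Irf1 siRNA libraries.

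With Irf1 siRNA, both ferritin chains, the transferrin receptor, DMT1 and IRP1 were higher at the mRNA level, ferroportin was lower, and neither heme oxygenase passed the threshold. Of the 10 genes, 5 rose (Fth1, Ftl1, Tfrc, Aco1 and Slc11a2), 1 fell (Slc40a1) and 4 did not pass an adjusted p of 0.05 (Ncoa4, Ireb2, Hmox1 and Hmox2). The test was edgeR's quasi-likelihood F test with Benjamini-Hochberg adjustment over all 14683 tested genes, of which 22.4% passed, 10.4% higher and 12.0% lower. Rises made up 46.3% of these calls, and 54.5% with upper-quartile factors or 54.7% with a correction for GC content and length. The groups did not overlap for 7 of the 10 genes, against 38.1% of tested genes. The median log2 fold change was 0.18 over the 10 genes and 0.0011 over all tested genes. In these bulk samples, a change in the share of a cell type and a change in RNA per cell cannot be told apart. The number that rose was 3 without control replicate 2, without Irf1 siRNA replicate 1 or without Irf1 siRNA replicate 3, and Fth1, Ftl1 and Tfrc were the 3 that remained.

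**Figure D2:**
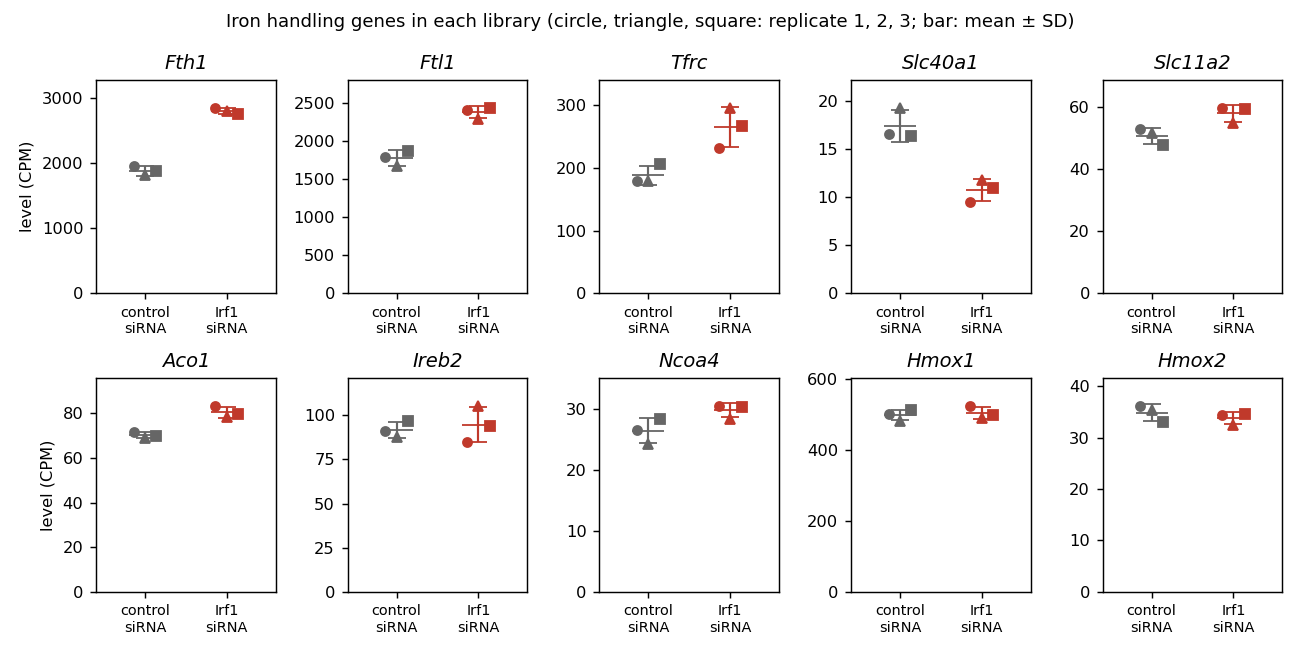
Level of each gene in CPM (linear axis from 0) in the 3 control siRNA and 3 Irf1 siRNA libraries, with the mean and SD of each group. All Irf1 siRNA points lie above all control points for Fth1, Ftl1, Tfrc, Slc11a2, Aco1 and Ncoa4 and below them for Slc40a1, while the groups overlap for Ireb2, Hmox1 and Hmox2.

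Ferritin heavy chain, which carries the ferroxidase site that oxidises iron for storage, rose in every alternative run. Fth1 (ENSMUSG00000024661.8) was at 1965, 1816 and 1878 CPM in control replicates 1, 2 and 3 and at 2856, 2806 and 2758 CPM in Irf1 siRNA replicates 1, 2 and 3. The lowest Irf1 siRNA library was well above the highest control library, and the libraries of a group lay close together. The means were 1886 ± 74.5 and 2806 ± 49.2 CPM (SD, n = 3), a 1.49-fold rise (log2 fold change 0.57, SE 0.06, edgeR adjusted p = 3.7e-06). Across the alternative settings its log2 fold change stayed between 0.55 and 0.60. It was the largest rise of the 10 in the main test, where the fall of Slc40a1 was larger in size (−0.69). The rise of Tfrc was larger than that of Fth1 with the GC and length correction (0.57 against 0.56), with that correction and the replicate block (0.57 against 0.56) and without Irf1 siRNA replicate 1 (0.58 against 0.56).

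Ferritin light chain, which helps form the iron core inside the shell, rose less. Ftl1 (ENSMUSG00000050708.17) was at 1782, 1666 and 1866 CPM with control siRNA and at 2409, 2283 and 2434 CPM with Irf1 siRNA. Again the groups did not overlap. The means were 1771 ± 101 and 2375 ± 80.6 CPM, a 1.34-fold rise (log2 fold change 0.42, SE 0.06, edgeR adjusted p = 1.3e-04).

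Within a library, where scaling plays no part, the ratio of Fth1 to Ftl1 read counts was 1.10, 1.09 and 1.01 with control siRNA and 1.19, 1.23 and 1.13 with Irf1 siRNA. Every Irf1 siRNA library had more heavy chain per light chain than every control library, by 1.11-fold on average. The two-sided exact permutation test gave p = 0.1, the smallest that this test can give with 3 against 3 libraries.

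Ferritin genes have processed pseudogenes that can take reads. The row of Ftl1-ps1 held 750, 1040 and 726 counts with control siRNA and 734, 769 and 752 with Irf1 siRNA, against at least 46974 for Ftl1 in any library, and was not past the threshold (log2 fold change 0.08, adjusted p = 0.745). Fth1-ps, Ftl1-ps2 and Ftl2-ps had 28, 35 and 18 counts over all libraries. With the pseudogene rows added to their parent genes, the log2 fold changes were 0.57 for Fth1 and 0.42 for Ftl1.

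Transferrin receptor 1, the entry point for transferrin-bound iron, rose alongside ferritin. Tfrc (ENSMUSG00000022797.17) was at 179, 179 and 206 CPM with control siRNA and at 232, 296 and 267 CPM with Irf1 siRNA. Its Irf1 siRNA libraries were the more spread, from 232 in replicate 1 to 296 in replicate 2, and all lay above the controls. The means were 187.9 ± 15.4 and 264.9 ± 32.0 CPM, a 1.41-fold rise (log2 fold change 0.50, SE 0.08, edgeR adjusted p = 7.4e-04). Left-out libraries and other settings gave log2 fold changes of 0.41 to 0.58, each with an adjusted p of at most 0.0065.

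The ratio of Tfrc to Fth1 read counts was 0.0911, 0.0985 and 0.109 with control siRNA and 0.0812, 0.105 and 0.0968 with Irf1 siRNA. These ranges overlapped, and the mean log2 ratio differed by −0.08 (exact permutation test, two-sided, p = 0.6). The rises of uptake receptor and storage chain could not be separated here, and the sign of the difference turned without Irf1 siRNA replicate 1 (0.023).

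DMT1, the proton-coupled transporter that carries ferrous iron out of endosomes, rose by a small amount. Slc11a2 (ENSMUSG00000023030.17) was at 53.0, 51.6 and 48.0 CPM with control siRNA and at 59.9, 54.9 and 59.4 CPM with Irf1 siRNA. The groups did not overlap, but Irf1 siRNA replicate 2 was close to control replicate 1. The means were 50.9 ± 2.61 and 58.1 ± 2.75 CPM (log2 fold change 0.19, SE 0.06, edgeR adjusted p = 0.0402). This call was lost with DESeq2 (adjusted p = 0.0539), with no filter on low counts (0.0684) and on leaving out control replicate 1 (0.0512), 2 (0.0899) or 3 (0.154), or replicate 1 (0.107) or 3 (0.15) of the Irf1 siRNA arm.

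Ferroportin, the iron exporter of vertebrate cells, moved the other way. Slc40a1 (ENSMUSG00000025993.11) was at 16.6, 19.4 and 16.4 CPM with control siRNA and at 9.53, 11.8 and 10.9 CPM with Irf1 siRNA. Even the lowest control library lay well above the highest Irf1 siRNA library. The means were 17.5 ± 1.66 and 10.8 ± 1.17 CPM, which left 61.9% of the control level (log2 fold change −0.69, SE 0.10, edgeR adjusted p = 1.5e-04). Its log2 fold change lay between −0.77 and −0.61 in all 15 alternative settings, and it passed the threshold in each.

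**Figure D3:**
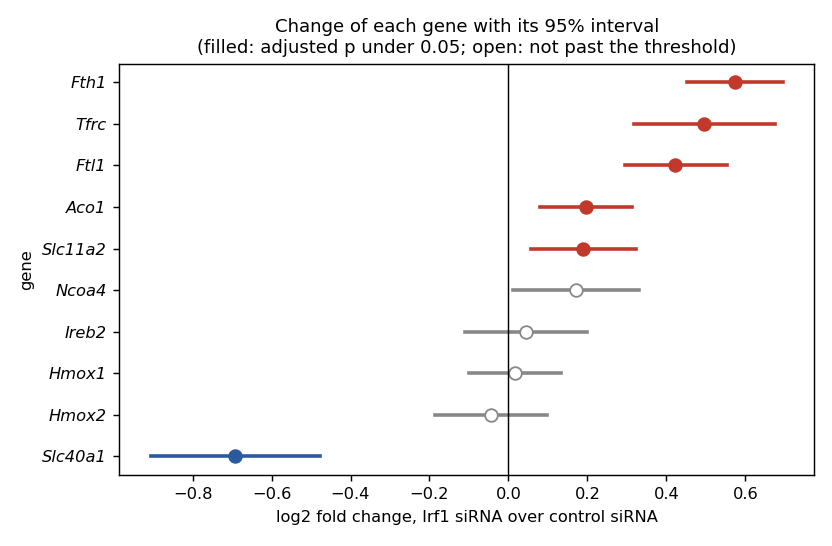
Log2 fold change of each gene, Irf1 siRNA over control siRNA, as a point with its 95% interval, filled where the adjusted p was under 0.05. Fth1, Tfrc and Ftl1 lie furthest to the right, from 0.42 to 0.57, Slc40a1 lies alone at the left at −0.69, and the intervals of Ireb2, Hmox1 and Hmox2 include 0.

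Of the iron regulatory proteins, IRP1 rose slightly and IRP2 was not past the threshold. Aco1 (ENSMUSG00000028405.10) was at 71.7, 69.1 and 70.0 CPM with control siRNA and at 83.3, 78.3 and 79.9 CPM with Irf1 siRNA, with no overlap. Its log2 fold change was 0.20 (SE 0.06, edgeR adjusted p = 0.0181), which failed on leaving out control replicate 2 (0.0799), Irf1 siRNA replicate 1 (0.0574) or Irf1 siRNA replicate 3 (0.0618). Ireb2 (ENSMUSG00000032293.9) was at 91.1, 87.8 and 96.8 CPM with control siRNA and at 85.1, 105 and 93.8 CPM with Irf1 siRNA, where the spread among the Irf1 siRNA libraries covered the whole control range. Its log2 fold change was 0.04 (95% interval −0.11 to 0.20, adjusted p = 0.708), and with a correction for GC content and length it was 0.12 and passed (0.0329).

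The count ratio of Aco1 to Ireb2 was 0.787, 0.786 and 0.723 with control siRNA and 0.979, 0.744 and 0.852 with Irf1 siRNA. The groups overlapped through Irf1 siRNA replicate 2 (exact permutation test, two-sided, p = 0.3).

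NCOA4, the receptor that delivers ferritin to the lysosome, was slightly higher without passing the threshold. Ncoa4 (ENSMUSG00000056234.16) was at 26.5, 24.3 and 28.4 CPM with control siRNA and at 30.5, 28.4 and 30.4 CPM with Irf1 siRNA, so control replicate 3 and Irf1 siRNA replicate 2 were almost level. Its log2 fold change was 0.17 (95% interval 0.01 to 0.33, edgeR adjusted p = 0.12), and it passed with the GC and length correction (log2 fold change 0.22, adjusted p = 0.0214).

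Heme oxygenase 1, the stress-induced enzyme that opens the heme ring, was abundant and differed little between the groups. Hmox1 (ENSMUSG00000005413.9) was at 502, 483 and 512 CPM with control siRNA and at 524, 491 and 499 CPM with Irf1 siRNA, where Irf1 siRNA replicate 1 was the highest of all 6 and the other libraries were intermixed. Its log2 fold change was 0.02 (edgeR adjusted p = 0.862), with a 95% interval of −0.10 to 0.13, or 0.933-fold to 1.10-fold. A rise of the size seen for Fth1 lies outside that interval.

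Heme oxygenase 2, the constitutive isoenzyme, was likewise level. Hmox2 (ENSMUSG00000004070.16) was at 36.2, 35.4 and 33.1 CPM with control siRNA and at 34.5, 32.5 and 34.6 CPM with Irf1 siRNA (log2 fold change −0.04, 95% interval −0.19 to 0.10, adjusted p = 0.677). The count ratio of Hmox1 to Hmox2 was 13.9, 13.6 and 15.4 with control siRNA and 15.2, 15.1 and 14.4 with Irf1 siRNA. The ranges overlapped (exact permutation test, two-sided, p = 0.4).

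**Figure D4:**
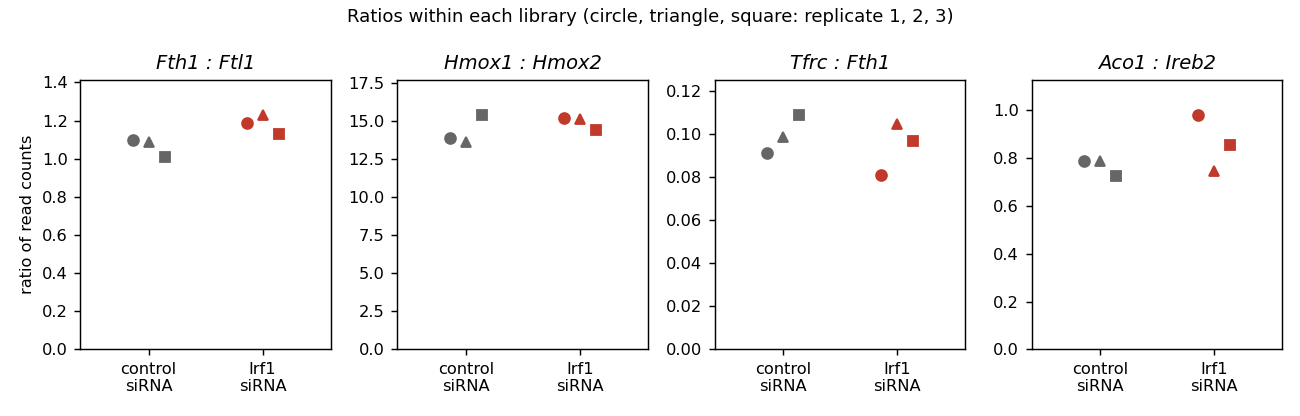
Ratios of raw read counts within each library for 4 gene pairs, not corrected for transcript length, in the 3 control siRNA and 3 Irf1 siRNA libraries, with linear axes from 0. Only the ratio of Fth1 to Ftl1 separates the groups among these 4, at up to 1.10 in control and at least 1.13 in Irf1 siRNA libraries.

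Per kilobase of main transcript, ferritin mRNA stood far above the rest in control cells. Fth1 was at 2030 CPM per kilobase and Ftl1 at 1830, followed by Hmox1 (318), Tfrc (38.4), Hmox2 (20.2), Aco1 (18.3), Slc11a2 (16.8), Ireb2 (15.9), Ncoa4 (6.50) and Slc40a1 (5.18). In this order only Slc11a2 and Ireb2 were neighbours whose control libraries overlapped. With Irf1 siRNA, Aco1 (21.0) stood above Hmox2 (19.6), and the libraries of Hmox2, Slc11a2 and Ireb2 overlapped from each to the next. The lengths come from 1 annotated transcript per gene, so these levels depend on that choice.

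The factors known to control Hmox1 and the ferritin genes through antioxidant response elements were compared next. NRF2 (Nfe2l2) and its small MAF partners activate these elements, KEAP1 holds NRF2 in check and BACH1 represses Hmox1 until heme removes it. Of 8 tested regulators, 1 rose and 1 fell, shares near the 10.4% and 12.0% of all tested genes. Mafk, a small MAF gene, averaged 25.7 ± 0.363 CPM in the controls and 29.9 ± 2.11 CPM after knockdown (log2 fold change 0.22, edgeR adjusted p = 0.037). That call was lost with DESeq2 (0.0538), with no filter (0.0636) and without any single library other than Irf1 siRNA replicate 3 (0.0514 to 0.139). Bach2, a relative of BACH1 best known from lymphocytes, was at 3.34 ± 0.362 and 2.16 ± 0.530 CPM (log2 fold change −0.61, adjusted p = 0.031). Its call was lost in libraries thinned to equal depth (0.0523) and on leaving out control replicate 2 (0.061) or 3 (0.101), or replicate 1 (0.118) or 3 (0.0992) of the Irf1 siRNA arm. Nfe2l2 was at 93.0 ± 3.96 and 101.8 ± 1.07 CPM, with no overlap and an adjusted p of 0.11, or 0.0041 with the GC and length correction. The others gave log2 fold changes of 0.12 for Bach1 (adjusted p = 0.269), 0.06 for Keap1 (0.566), −0.01 for Nfe2l1 (0.92), −0.11 for Maff (0.481) and −0.16 for Mafg (0.0977). Mafg passed with the GC and length correction (0.0159).

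Of 22 genes that NRF2 is known to activate outside iron handling, 11 rose, against 10.4% of all tested genes, with a median log2 fold change of 0.22 over the list. None fell in edgeR or DESeq2 at an adjusted p of 0.05, and 1 had an unadjusted p under 0.05 on the lower side. The other 11 did not pass in edgeR. Among them were Gclm, the 1 on the lower side (log2 fold change −0.17, edgeR adjusted p = 0.107), and Slc7a11 (0.08, adjusted p = 0.467). The smallest p-values were those of the glutathione transferases Gsta1 (4.74 ± 0.316 to 11.6 ± 1.29 CPM) and Gsta4 (6.78 ± 1.19 to 17.2 ± 2.14 CPM), the aldehyde dehydrogenase Aldh3a1 (3.60 ± 0.535 to 8.82 ± 0.374 CPM) and Osgin1 (3.39 ± 0.0617 to 7.85 ± 1.11 CPM). Nqo1, the quinone reductase often read as the model NRF2 target, rose by 0.57 on the log2 scale, as much as Fth1. Gclc, Txnrd1, Srxn1, Prdx1, Gstm1 and Cbr3 also rose. These 7, Gclm and Slc7a11 were named after their values were seen. The call of Cbr3 (adjusted p = 0.026) was lost with DESeq2 (0.0534) and on leaving out control replicate 2 (0.11) or Irf1 siRNA replicate 1 (0.0594), 2 (0.0718) or 3 (0.0512). The difference between these genes and Hmox1 was not tested.

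Other genes of iron uptake and intracellular transport moved in both directions. Of 16 tested of 18, 3 rose and 3 fell, against 10.4% and 12.0% of all tested genes, with a median log2 fold change of 0.06. Trf, which encodes transferrin itself, rose from 16.5 ± 1.13 to 25.0 ± 1.75 CPM (log2 fold change 0.60, SE 0.08, edgeR adjusted p = 9.1e-05). Steap3, the endosomal ferrireductase that works with the transferrin receptor and DMT1, rose from 119.9 ± 0.787 to 157.8 ± 5.84 CPM (log2 fold change 0.40, adjusted p = 8.5e-05). Mcoln1, a cation channel of lysosomes that can pass iron, fell from 43.5 ± 0.657 to 30.4 ± 1.21 CPM (log2 fold change −0.52, adjusted p = 2.8e-05), and the metalloreductase gene Steap4 fell by 0.81 (adjusted p = 0.0013). The metal importer gene Slc39a8 also fell (−0.42, adjusted p = 0.0063). Snx3, which sorts the transferrin receptor back to the surface, rose by 0.17 (adjusted p = 0.0363). It failed the threshold when any single library was left out (0.0627 to 0.127) and with no filter (0.0928). Slc39a14, which encodes another importer of unbound iron, was at 450.5 ± 23.3 and 447.5 ± 13.1 CPM (adjusted p = 0.926). Slc39a8, Snx3 and Slc39a14 were named after their values were seen.

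Beside Slc40a1, genes of iron export and of the hepcidin axis gave 2 rises among 10 tested of 14, with a median of 0.08. The share of all tested genes that rose was 10.4%, and 12.0% fell. Bmp6, the ligand that raises hepcidin in liver, rose from 3.42 ± 0.417 to 5.91 ± 0.890 CPM (log2 fold change 0.78, edgeR adjusted p = 0.0016), and Smad4, the common mediator of BMP signals, rose by 0.37 (adjusted p = 4.8e-04). Ceruloplasmin (Cp), the ferroxidase that works with ferroportin, was at 138.6 ± 5.72 and 134.3 ± 10.8 CPM (adjusted p = 0.672). Fbxl5, the iron-sensing ligase subunit that marks IRP2 for degradation, was at 47.4 ± 2.59 and 53.9 ± 3.43 CPM (adjusted p = 0.0586). Cp and Fbxl5 were named after their values were seen.

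Genes of heme synthesis gave 1 rise among 12 tested of 14, a share near the 10.4% of all tested genes that rose, and a median of 0.03. At an unadjusted p under 0.05, 2 were higher and 2 lower. The groups did not overlap for 4 of the 12, no more often than for all tested genes (38.1%). The rise was that of Tmem14c, a mitochondrial porphyrin carrier (log2 fold change 0.22, edgeR adjusted p = 0.0167), and it was lost without control replicate 1 (0.0847) or 2 (0.0663). In heme transport and breakdown, 1 of 13 tested rose and 4 fell, against 10.4% and 12.0% of all tested genes, with a median of −0.04. The exporter gene Abcg2 fell by 0.50 (adjusted p = 8.4e-04), Pgrmc1, which encodes a heme-binding membrane protein, by 0.31 (adjusted p = 0.0014) and Hp, which encodes haptoglobin, by 0.87 (adjusted p = 0.0035). Hebp2 fell by 0.31 (adjusted p = 0.0293). It failed in thinned libraries (0.0605) and on leaving out control replicate 2 (0.136) or 3 (0.0772), or replicate 1 (0.0757) or 3 (0.103) of the Irf1 siRNA arm. Flvcr2 rose by 0.31 (adjusted p = 0.0179), but not on leaving out control replicate 3 (0.0696) or Irf1 siRNA replicate 1 (0.0725). The biliverdin reductases that act after heme oxygenase gave 0.11 for Blvra (adjusted p = 0.405) and 0.18 for Blvrb (0.163). Hebp2, Blvra and Blvrb were named after their values were seen.

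Iron-sulfur cluster assembly, the other main use of iron beside heme, gave 1 rise and 2 falls among 21 tested of 22, with a median of 0.03. Both shares were below the 10.4% and 12.0% of all tested genes. Nfu1, a late-acting cluster carrier, fell from 64.6 ± 2.60 to 45.4 ± 2.06 CPM (log2 fold change −0.51, edgeR adjusted p = 2.4e-05), and Iscu, the scaffold on which clusters are built, fell by 0.38 (adjusted p = 0.0032). Glrx5, a mitochondrial glutaredoxin that passes clusters on, rose by 0.29 (adjusted p = 0.0153), but not on leaving out control replicate 2 (0.0817) or Irf1 siRNA replicate 1 (0.0614). Of 13 tested ferroptosis genes, which govern death by iron-driven lipid peroxidation, 4 rose, against 10.4% of all tested genes, and none fell. The median of this list was 0.06. At an unadjusted p under 0.05, 4 were higher and 1 lower, and DESeq2 called 3 higher. Among the 9 that did not pass in edgeR were Gpx4 (−0.07, adjusted p = 0.472) and Acsl4 (0.06, adjusted p = 0.592), both named after their values were seen. Cisd2 rose by 0.36 (adjusted p = 0.0011) and Chac1, which breaks down glutathione, by 0.29 (adjusted p = 0.0125, and 0.0529 without Irf1 siRNA replicate 1). Lpcat3 (0.19, adjusted p = 0.041) and Sat1 (0.17, adjusted p = 0.0458) rose by less. The call of Lpcat3 was lost with DESeq2 (0.0539), with no filter (0.0674) and on leaving out control replicate 1 (0.164) or 3 (0.117), or replicate 1 (0.0746) or 3 (0.148) of the Irf1 siRNA arm. That of Sat1 was lost with no filter (0.0884) and without any single library but Irf1 siRNA replicate 3 (0.0555 to 0.14).

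**Figure D5:**
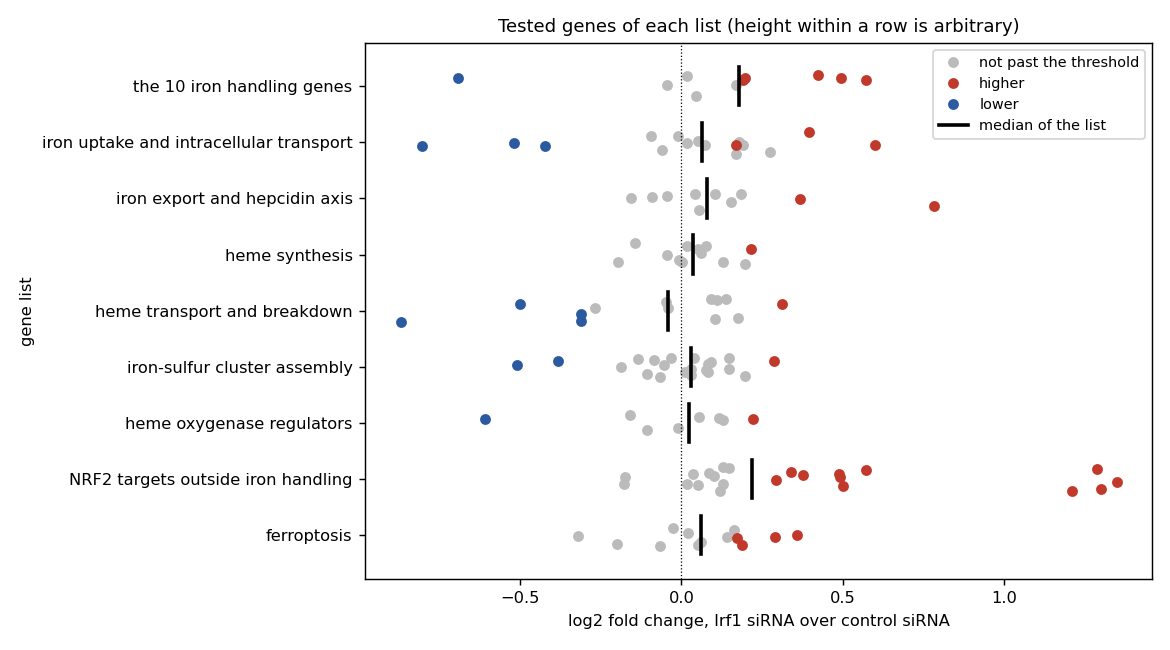
Log2 fold change, Irf1 siRNA over control siRNA, of every tested gene in 9 lists (1 point per gene, colour by call, black bar for the list's median). The 10 iron handling genes and the NRF2 targets have medians of 0.18 and 0.22, and the other lists have medians from −0.04 to 0.08.

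Among all tested genes with an iron responsive element core, the share past the threshold was close to the background of 22.4%. With the core in the 5′ UTR, 6 of 23 genes passed (26.1%), of which 2 rose (Fth1 and Ftl1) and 4 fell. Among the falls were those of Slc40a1, of Vti1b (log2 fold change −0.52, adjusted p = 2.0e-05) and of Nudt12 (−0.53, adjusted p = 0.0261). The call of Nudt12 was lost on leaving out control replicate 2 (0.0775) or 3 (0.0502), or replicate 1 (0.103) or 3 (0.0996) of the Irf1 siRNA arm. Vti1b and Nudt12 were named after their values were seen. With the core in the 3′ UTR, 27 of 102 passed (26.5%), 13 higher, among them Tfrc, and 14 lower. Genes with a core in either place thus included both rises and falls, and a match is not a tested element.

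An antioxidant response element core (TGACNNNGC, either strand) was searched in the 300-base promoter windows of RefSeq (GRCm38.p6), from 250 bases before to 50 after each start. Windows were at hand for 7 of the 10 genes, and 1 of them, Ncoa4, held a match, against 12.4% of 32851 windows. Slc40a1, Slc11a2 and Hmox1 had no window and were not searched. Sequence further from the start was not searched for any gene. No match says only that these letters are not in this window.

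Falls in these libraries have been found to go with short words in the 3′ UTR, namely ACTGATC with its neighbour CTGATCA, and GCTATCT with its neighbour CTATCTA. The words were chosen on these data. A word was present in the 3′ UTR of 43.5% of lower genes, 14.2% of higher genes and 2817 of 12815 tested genes with a 3′ UTR. Of the 10 iron handling genes, Hmox1 (GCTATCT) and Ireb2 (CTGATCA) had a word there, and neither passed the threshold. Slc40a1, the gene that fell, held none there. Its main transcript had CTGATCA in the coding sequence and GCTATCT in the 5′ UTR. Hmox2 had the overlapping words ACTGATC and CTGATCA in its coding sequence. How many of all tested genes hold a word outside the 3′ UTR was not counted, so these matches have no background to be read against. The part of these words in the fall of Slc40a1 was not tested.

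The genes most like the main members over the 6 libraries were taken by Pearson correlation of log2 CPM among 10457 genes of at least 5 CPM. They describe these libraries only, since 6 points give high values easily, both for genes past the threshold and for genes not past it. The 3 nearest to Hmox1 did not pass (edgeR adjusted p = 0.628 to 0.748), nor did Sf3b3, the nearest to Tfrc (0.168). For Fth1 they were Cpeb1 (r = 0.997), Ets2 (0.997) and Zfp783 (0.997), and for Ftl1 Cst6 (0.996), Il10rb (0.994) and Pde8a (0.993). For Tfrc they were Sf3b3 (0.998), Ranbp9 (0.995) and Wdr5 (0.994), and for Hmox1 Gm8355 (0.983), Lsm4 (0.978) and Ndufv3 (0.977).

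Macrophages recycle iron and are rich in ferroportin and heme oxygenase 1, so their markers were read beside these genes. Of 13 macrophage markers, 6 were at 0 in all libraries (Adgre1, Cd163, Vsig4, C1qb, C1qc and Fcgr1), and their summed level was 16.2 to 20.6 CPM with control siRNA and 21.1 to 21.7 CPM with Irf1 siRNA. The members moved both ways. Of the 4 tested, Cd14 (5.60 ± 0.632 to 7.92 ± 0.136 CPM) and Cd68 (6.815 ± 1.11 to 9.001 ± 0.539 CPM) rose. Lyz2 was at 1.57 ± 0.251 and 0.9751 ± 0.191 CPM, with no overlap and a log2 fold change of −0.69, close to that of Slc40a1 (edgeR adjusted p = 0.0566). Mrc1 was at 3.31 ± 0.809 and 3.15 ± 0.371 CPM (adjusted p = 0.837). Of those too low to test, Csf1r had 33 reads in the controls together and 21 after knockdown, and Ptprc had 20 and 9. Cd68 lost its call on leaving out control replicate 2 (adjusted p = 0.15) or Irf1 siRNA replicate 1 (0.0921), 2 (0.057) or 3 (0.0603). Of 10 erythroid markers, 7 were at 0 in all libraries, the globin genes among them, and the sum stayed at or below 0.256 CPM. Osteoclast markers summed to 26.9 to 37.6 CPM with control siRNA and 27.6 to 43.9 CPM with Irf1 siRNA, and Calcr was at 0. Endothelial markers summed to at most 2.57 CPM in any library. Fibroblast markers summed to 4477 to 5539 CPM with control siRNA and 3186 to 4059 CPM with Irf1 siRNA, most of it from Col1a1 and Col3a1. Of the 4 tested, Col1a1 (log2 fold change −0.51, adjusted p = 0.0035) and Col3a1 (−0.55, adjusted p = 3.4e-04) fell, while Pdgfra (0.01, adjusted p = 0.92) and Thy1 (−0.30, adjusted p = 0.0651) did not pass. Dpt and Pi16 were nearly absent and too low to test. Dpt had 3 reads in the controls together and 7 after knockdown, and Pi16 had 8 and 5. The single markers with values here were named after their values were seen. The part of these other cell types in the changes of the iron genes was not tested.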

How the data were processed

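Each of the 6 libraries had its own table of raw, unnormalised read counts by gene, as deposited by the authors. Per the submitters' processing notes, Trimmomatic 0.39, FastQC and STAR were used, and the build was GRCm39 (mm39). The libraries came from a stranded poly(A) kit, per the labels' protocols. How reads were assigned to genes (tool, annotation, strand) is not given in the sources used here, so overlapping and near-identical genes, ferritin and its pseudogenes among them, may share reads.

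The test was run in edgeR 4.0.16 (R 4.3.3) with filterByExpr by group (14683 genes kept), TMM factors, glmQLFit with the robust option and glmQLFTest, with group as the only term, two-sided, p-values adjusted over all tested genes. The standard error of a log2 fold change is its size over the square root of F, and 95% intervals use the fit's degrees of freedom. Levels are TMM-scaled CPM. Ratios within a library used raw counts and an exact permutation test. No 2 libraries of a group were copies (chi-square over degrees of freedom 5.35 to 15.2). The fit was tested on simulated counts with known changes.

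Alternatives were DESeq2 1.42.0, RLE and upper-quartile factors, other filters on low counts, the replicate number as a block, a GC and length correction (mgcv smooth fit per library, with GENCODE M21 values for 99.8% of tested genes), thinning to the smallest library, leaving out each library, and adding pseudogene rows. For genes other than the 10 these were chosen after seeing the data. Named beyond the 10 by rule were Irf1, all regulators of heme oxygenase, up to 4 genes per list past the threshold with the smallest p, the 3 genes closest in pattern to each of Fth1, Ftl1, Hmox1 and Tfrc, and ferritin pseudogenes with at least 10 counts. Others are marked where they stand. The 10 genes, the lists and the tests were chosen with earlier results of these data known. Transferrin was looked up as Trf, its mouse symbol. The table of all genes with an iron responsive element core and the word search over whole transcripts were added after the data were seen, and the main transcript of a gene was re-chosen once, after a first output, to prefer principal isoforms. Protein sequences were not used here.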

Additional observations from a re-analysis of the deposited data

How the results depend on the processing

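Fth1, Ftl1, Tfrc and Slc40a1 kept their direction and their side of the threshold in every alternative run. The number of the 10 genes that rose was 4 with DESeq2 and with no filter, 7 with the GC and length correction, with or without the block, and 3 to 5 with a library left out, and the number that fell was 1 in each. Over all tested genes, the number of rises was 1522, with 2477 under the GC and length correction, 2735 under the replicate block with that correction, and 959 to 1398 with a library left out. Falls went from 1767 to 2053 with the correction and 2230 with both, so rises came to outnumber falls there and with upper-quartile factors (1853 against 1548). The number of rises came to 980 when control replicate 2 was dropped and to 959 when Irf1 siRNA replicate 3 was. Why the numbers differ between settings, or between the libraries left out, was not tested. Every run with a library left out has fewer samples than the main test. The direction of genes near 0 turned for Ireb2 (−0.0396 to 0.115 with a library left out), Hmox1 (−0.0111 to 0.0368), Nfe2l1 (−0.0482 to 0.0419, and 0.0139 with upper-quartile factors), Ftl1-ps1 (−0.0388 to 0.274) and the log2 ratio of Tfrc to Fth1 (−0.165 to 0.023).

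Whether replicate numbers pair the libraries could not be settled. Deviations from the group means correlated at 0.413, −0.156 and 0.0783 for numbers 1, 2 and 3, and not every library correlated best with its own number. The deviations are taken from the mean of only 3 libraries a group, so these correlations depend on one another and cannot decide it. With the replicate number as a block, 1744 genes rose and 1984 fell, and the 10 genes gave the same 5 rises and 1 fall. The exact permutation test of the ratios cannot give a p under 0.1 with 3 libraries a group, so these p-values say nothing of stability. Slc40a1 rests on 211 to 546 counts per library, the fewest of the 10.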
